A study of Mus musculus with 8 samples.

Results

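This account describes 10 genes of the phospholipase C family in the embryonic mouse kidney: Plcd4, Plcxd3, Plcd1, Plcd3, Plcb1, Plcb4, Plce1, Plcg1, Plcg2 and Plcxd2. They were taken as every array probe whose RefSeq accession belongs to one of these genes, which gave 18 probes for the 10 genes, out of 22911 genes named on the array. The group was chosen on measured values: Plcd4 and Plcxd3 were selected for their higher level in the mutant in these same arrays, so their ratios are given as a description with no test. The other 8 members, and 8 further family genes added for completeness (Plcb2, Plcb3, Plch1, Plch2, Plcl1, Plcl2, Plcz1 and Plcxd1), show how far the difference extends over the family.

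The study set whole kidneys of wild-type embryos at embryonic day 14.5 against those of mutant embryos, in which Mdm4, an inhibitor of p53, was conditionally removed by a Cre recombinase under Hoxb7 control. Hoxb7-driven Cre acts in the ureteric bud and the collecting system that grows from it, whereas the RNA came from the whole organ, in which other cell types also contribute. The labels give 4 wild-type and 4 mutant RNAs in 4 numbered pairs, and each pair was hybridised to 2 two-colour Agilent arrays with the dyes exchanged, 8 arrays in all. They state neither whether the wild-type embryos carried the Cre transgene or a floxed allele, nor how many embryos went into an RNA, nor what a pair shared beyond its arrays.

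Phospholipase C enzymes cut the membrane lipid phosphatidylinositol bisphosphate into inositol trisphosphate, which releases calcium from internal stores, and diacylglycerol, which recruits and activates protein kinase C. Subclasses differ in how they are switched on: beta enzymes by G proteins of the Gq class, gamma enzymes by receptor tyrosine kinases, epsilon by small GTPases, and delta enzymes mainly by calcium. In the developing kidney the best known links are Plcg1, a docking partner of the receptor Ret in the ureteric bud, and Plce1, which podocytes need to mature.

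Each value below is a log2 ratio of mutant over wild type, the mean of the 2 arrays of a pair, unless a level is named. Between 60.7% and 70.2% of the non-control spots of a channel were well above background, and 0 spots of the family's probes were saturated. Precision is limited by the small number of arrays: among the 16013 tested genes the standard error had a median of 0.07. No gene reached an adjusted p of 0.05 in limma's moderated test (0 called, 0% of the genes), and the smallest adjusted p was 0.0750. Higher values in all 4 pairs were found for 12.1% of the genes and lower values in all 4 pairs for 7.84%. Without adjustment, limma's test passed 0.05 in the higher direction for 7.01% of the genes and in the lower direction for 3.60%, 1699 genes together. The targeted gene Mdm4 gave -0.03, -0.06, -0.28 and -0.35 in pairs 1 to 4, a mean of -0.18 ± 0.07 (SE, n = 4, adjusted p = 0.471 in limma).

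Plcd4, a delta-class enzyme, had rank 2 of the 16013 genes tested by mean ratio, below the Y-linked Eif2s3y at 2.06. Plcxd3, which has only the X part of the catalytic domain, had rank 31. These ranks use the brightest probe of each gene and the same ratios on which Plcd4 and Plcxd3 were chosen. Plcd4 was 3.63-fold higher in the mutant kidneys and Plcxd3 1.77-fold higher. The means of the other 15 measured family genes lay between -0.29 for Plch2 and 0.26 for Plcb1. limma called 0 of these 15 (adjusted p 0.417 to 0.984). It called 0 of all 16013 genes tested, so that count does not set them apart from Plcd4 and Plcxd3. Single pairs of the 15 genes reached 0.78, in Plcb1, which is above the lowest Plcxd3 pair at 0.46. In whole-organ RNA, more cells of a type and more RNA per cell cannot be told apart.

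The sequences upstream of the genes that carry this contrast are shown for comparison with a delta-class relative that differed little. Each window spans an annotated start, mostly on its upstream side, as RefSeq gives it for build GRCm38.p6, and is read 5′ to 3′ on the gene's strand. The windows lie at chr1:74542639-74542938 and chr1:74544110-74544409 on the plus strand for Plcd4, at chr15:4375241-4375540 on the plus strand for Plcxd3, and at chr11:103101609-103101908 on the minus strand for Plcd3. Capitals mark a CCAAT box (CCAAT, or ATTGG on the other strand) and a GC box (GGGCGG, or CCGCCC on the other strand).
Plcd4 window 1: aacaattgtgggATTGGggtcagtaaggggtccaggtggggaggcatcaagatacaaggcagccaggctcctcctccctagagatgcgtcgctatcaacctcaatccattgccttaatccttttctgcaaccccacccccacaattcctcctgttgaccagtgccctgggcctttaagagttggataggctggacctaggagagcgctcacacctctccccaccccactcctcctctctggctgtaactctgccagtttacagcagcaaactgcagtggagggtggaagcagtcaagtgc
Plcd4 window 2: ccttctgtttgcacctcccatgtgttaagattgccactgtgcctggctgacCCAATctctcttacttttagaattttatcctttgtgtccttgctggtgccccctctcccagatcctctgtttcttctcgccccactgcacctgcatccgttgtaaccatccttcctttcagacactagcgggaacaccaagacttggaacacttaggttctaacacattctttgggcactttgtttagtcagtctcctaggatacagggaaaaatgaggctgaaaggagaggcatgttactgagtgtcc
Plcxd3: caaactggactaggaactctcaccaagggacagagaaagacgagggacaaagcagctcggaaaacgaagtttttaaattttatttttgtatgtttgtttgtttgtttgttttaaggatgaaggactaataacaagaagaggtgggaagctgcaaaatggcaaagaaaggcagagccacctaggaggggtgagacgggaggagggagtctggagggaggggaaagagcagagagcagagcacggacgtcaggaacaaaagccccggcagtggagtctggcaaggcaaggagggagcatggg
Plcd3: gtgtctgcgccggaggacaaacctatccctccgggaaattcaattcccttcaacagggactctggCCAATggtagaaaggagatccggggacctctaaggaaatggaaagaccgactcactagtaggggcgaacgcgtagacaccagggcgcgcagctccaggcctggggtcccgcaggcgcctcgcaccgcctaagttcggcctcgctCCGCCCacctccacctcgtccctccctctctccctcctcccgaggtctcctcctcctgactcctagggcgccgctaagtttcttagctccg
Both Plcd4 windows held 1 CCAAT box and 0 GC boxes, the Plcxd3 window held 0 of either, and the Plcd3 window held 1 of each. None of the 4 windows held a TATA box (TATAAA) or a p53 half-site by its usual consensus, searched on both strands with overlaps allowed. Over all 32851 windows of the table, 35.7% held a GC box, 37.4% a CCAAT box, 13.6% a TATA box and 8.36% a p53 half-site. The GC content was 55.3% and 48.0% in the Plcd4 windows, 49.3% in the Plcxd3 window and 62.3% in the Plcd3 window, against a median of 52.7% over all windows. The table held 22 windows for 16 of the family genes, and the windows of Plcb1, Plce1 and Plcl1 each held 1 p53 half-site. GC boxes were also absent from every window of Plce1, Plch1 and Plcxd1, where the GC content ran from 41% to 62.7%. Plcd1, the other delta gene, had 2 GC boxes in each window, and the remaining family genes had GC boxes in at least 1 window. These matches describe letters in a short window and no binding.

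Plcd4 levels were separated by genotype. The brightest of its 3 probes gave normalised log2 levels of 7.08, 6.83, 7.39 and 6.90 in the wild-type RNAs of pairs 1 to 4, and 9.29, 8.55, 8.52 and 9.28 in the mutant RNAs. Every mutant RNA was thus above every wild-type RNA, and the mutants of pairs 1 and 4 stood above those of pairs 2 and 3. The ratios were 2.21, 1.73, 1.13 and 2.38, with a mean of 1.86 ± 0.20 (SE, n = 4). No interval is given, because Plcd4 was chosen on this contrast. Pair 3 had the smallest ratio, with both the highest wild-type and the lowest mutant level.

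All 8 arrays gave a higher Plcd4 value in the mutant, with a mean of 1.81 where mutant RNA carried Cy5 and 1.91 where it carried Cy3. In the Cy3 channel the spot read 42.5 to 66 scanner units in wild type over a local background of 20 to 23, and 232 to 311 in the mutant. In the Cy5 channel it read 121 to 214 over a background of 96 to 100 in wild type, and 662 to 1225 in the mutant. Wild-type signal was therefore close to background, above it by the scanner's rule in 7 of 8 channels, whereas all 8 mutant channels passed. The ratio was 1.86 with the model-based correction used here, 3.34 with plain subtraction, 3.18 with the scanner's processed signals and 2.25 with no subtraction.

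The other Plcd4 probes gave smaller ratios in the same direction. Both passed the background filter only through their mutant channels, so their direction is no separate support. A second probe for the same transcript gave 1.38, 0.97, 0.58 and 1.34, a mean of 1.07, and cleared background in 8 of 8 mutant channels but 1 of 8 wild-type channels. The remaining probe, designed on another RefSeq transcript of the gene, gave 0.40, 0.29, 0.28 and 0.35. It cleared background in 7 of 8 mutant channels but 0 of 8 wild-type channels, so its mean is a bound of at least 1.26-fold, taken against the higher of the dimmest detected signal and its own signal. Within these probes, pair 3 again had the smallest value. Taking the median of the 3 probes in place of the brightest lowered the Plcd4 ratio to 1.07.

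**Figure D1:**
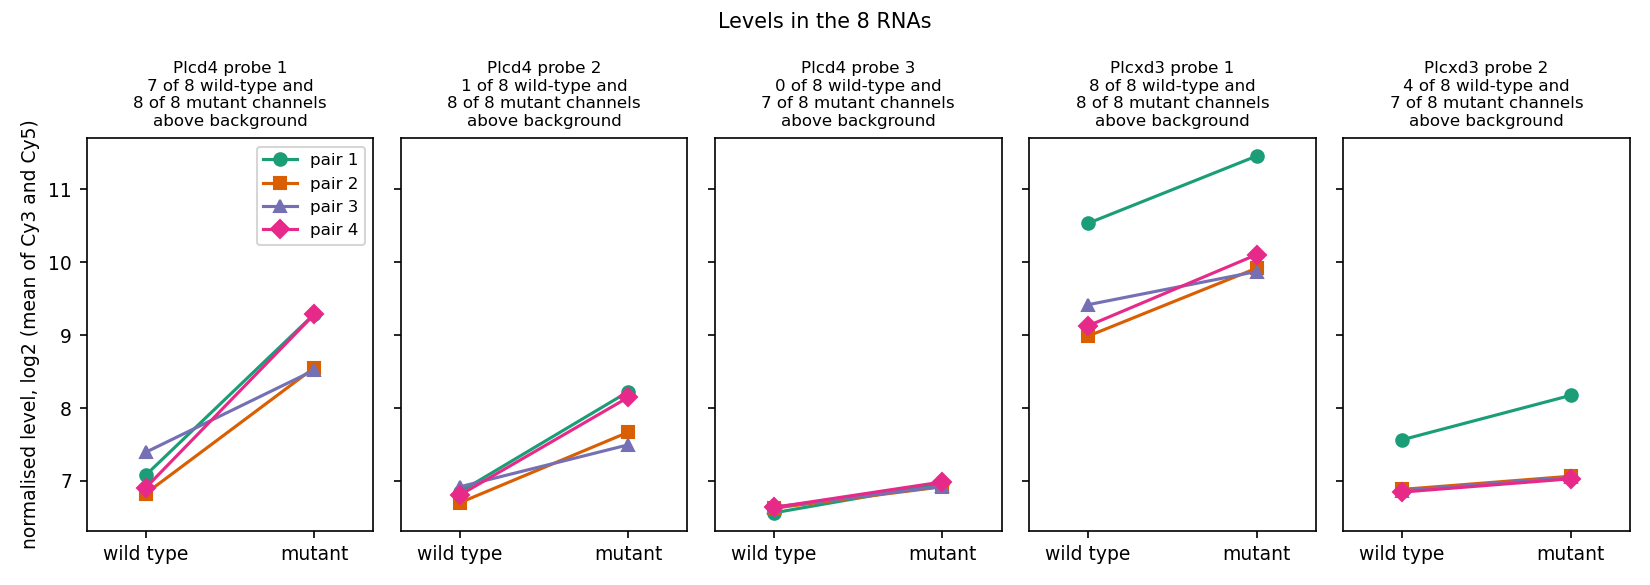
Normalised log2 level (vertical axis, mean of the Cy3 and Cy5 channels) of each Plcd4 and Plcxd3 probe in the wild-type and the mutant RNA, with a line joining the RNAs of each of the 4 pairs. The brightest Plcd4 probe reads 6.83 to 7.39 in wild type and 8.52 to 9.29 in the mutant, whereas for Plcxd3 the wild-type RNA of pair 1 lies above the mutant RNAs of the other pairs.

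Plcxd3 was higher in the mutant RNA of every pair, but its levels overlapped between genotypes. Its brightest probe gave 10.53, 8.99, 9.42 and 9.13 in wild type and 11.46, 9.92, 9.87 and 10.10 in the mutant. Pair 1 was high in both genotypes, and its wild-type RNA exceeded the mutant RNAs of pairs 2 to 4. The ratios were 0.92, 0.93, 0.46 and 0.98, a mean of 0.82 ± 0.10 (SE, n = 4), with pair 3 lowest as for Plcd4. As for Plcd4, no interval is given. All 8 arrays were higher in the mutant, with means of 0.89 with mutant RNA in Cy5 and 0.76 in Cy3.

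The second Plcxd3 probe was dim and cleared background in 7 of 8 mutant and 4 of 8 wild-type channels. This probe too passed the background filter only through its mutant channels, so its direction is no separate support. It gave 0.61, 0.18, 0.18 and 0.18, a mean of 0.29, with pair 1 apart from the rest. Its levels were 7.56 in the wild-type and 8.17 in the mutant RNA of pair 1, against 6.85 to 6.88 and 7.03 to 7.06 in the other pairs.

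Among the remaining delta enzymes, Plcd1, a calcium-regulated enzyme, had a small positive ratio in each pair. Its levels were 12.39, 12.34, 12.41 and 12.28 in wild type and 12.71, 12.49, 12.48 and 12.48 in the mutant. The groups did not overlap, although the gap between the highest wild-type and the lowest mutant level was small beside that of Plcd4. The ratios of 0.32, 0.15, 0.07 and 0.19 had a mean of 0.19 ± 0.06 (SE, n = 4; 95% interval 0.03 to 0.34), short of limma's threshold (adjusted p = 0.434). Plcd3, the other delta enzyme, gave 0.04, 0.04, -0.08 and 0.29, a mean of 0.07 ± 0.07, and its second probe had a mean of -0.05. The 95% interval of Plcd3 ran from -0.11 to 0.25.

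Plcxd2, the X-domain relative of Plcxd3, gave -0.36, -0.11, 0.12 and 0.38. Its values spread to both sides of 0, and the mean was 0.01 ± 0.12 (95% interval -0.29 to 0.30, adjusted p = 0.984 in limma). Plcxd1, the remaining X-domain gene, had a mean of 0.04 ± 0.07 and an upper bound of 0.22.

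**Figure D2:**
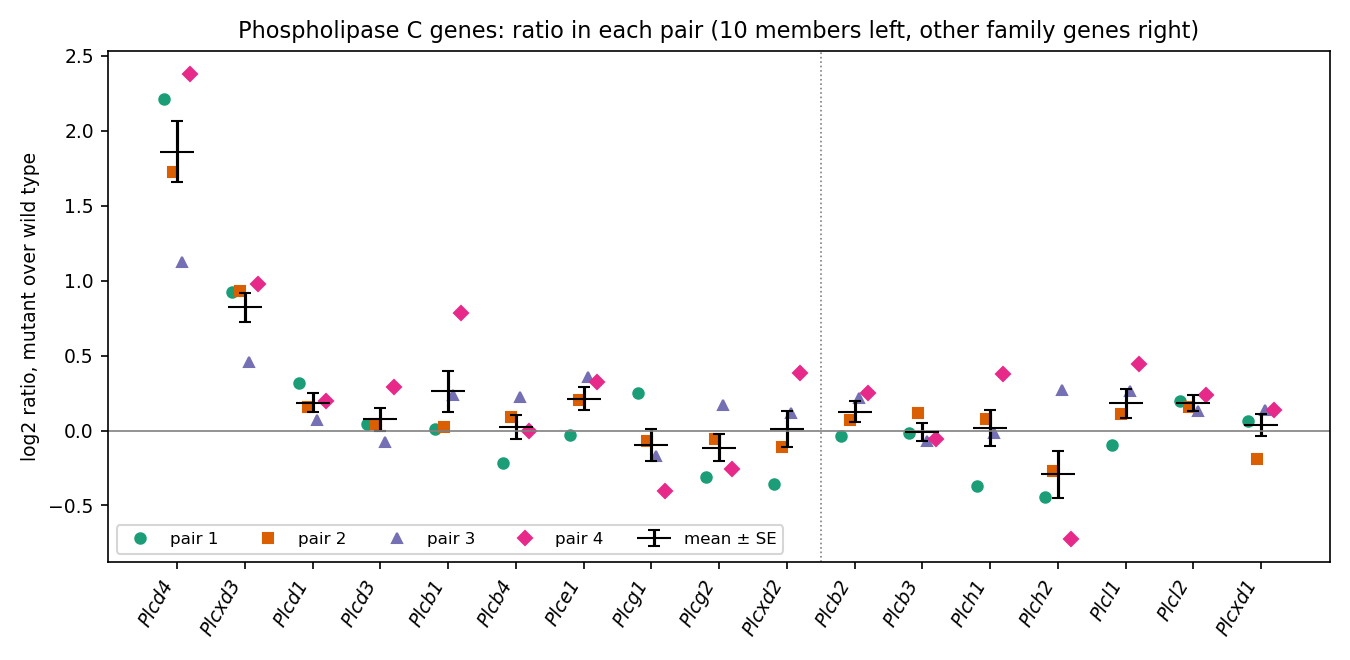
Log2 ratio of mutant over wild type (vertical axis) of the 17 measured phospholipase C genes, with 1 symbol per pair and the mean ± SE in black, the 10 members left of the dotted line and the other family genes right of it. Plcd4 lies at 1.13 to 2.38 and Plcxd3 at 0.46 to 0.98, while the means of the other 15 genes lie between -0.29 and 0.26.

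Of the beta enzymes, which Gq proteins activate, Plcb1 had the highest mean among the genes other than Plcd4 and Plcxd3, and it rested on 1 pair. Its ratios were 0.01, 0.02, 0.24 and 0.78, a mean of 0.26 ± 0.14 (95% interval -0.07 to 0.59), and without pair 4 the mean was 0.09. The mutant RNA of pair 4 stood at 10.54, whereas the other mutant RNAs lay between 9.75 and 9.82 and the wild-type RNAs between 9.52 and 9.80. The 2 dye orientations differed, with 0.49 for mutant RNA in Cy5 and 0.03 for Cy3. Its other probes had means of 0.22 and -0.04, and in pair 4 the latter gave -0.37, opposite to the brightest probe.

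Plcb4 gave -0.21, 0.09, 0.22 and -0.00, a mean of 0.02 ± 0.08, and its second probe also had a mean of 0.02. Plcb2, best known from blood cells, had a mean of 0.13 ± 0.07, and Plcb3, a widely expressed beta enzyme, had -0.01 ± 0.06 with levels of 12.84 to 13.14 in wild type and 12.92 to 13.08 in the mutant. No beta gene passed limma's adjusted threshold, which 0 of all genes tested passed.

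The gamma enzymes, which bind activated tyrosine kinase receptors, did not differ by genotype beyond their spread. Plcg1 gave levels of 8.71, 8.92, 9.01 and 8.99 in wild type and 8.96, 8.85, 8.84 and 8.58 in the mutant, which overlapped. Its ratios of 0.25, -0.07, -0.17 and -0.40 had a mean of -0.10 ± 0.11 (95% interval -0.36 to 0.16), and the sign of the mean turned with the dye, 0.08 for mutant RNA in Cy5 and -0.28 in Cy3. Plcg2, the gamma enzyme of blood cells, gave -0.31, -0.06, 0.17 and -0.26, a mean of -0.11 ± 0.09 (95% interval -0.34 to 0.11). Here too the orientations differed in sign, -0.28 and 0.05.

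Plce1, the epsilon enzyme, was lower in pair 1 and higher in the other pairs. Its levels were 8.81, 8.68, 8.45 and 8.57 in wild type and 8.78, 8.89, 8.81 and 8.90 in the mutant, so that the wild-type RNA of pair 1 reached the mutant range. The ratios of -0.03, 0.20, 0.36 and 0.32 had a mean of 0.21 ± 0.08 (95% interval 0.02 to 0.41, adjusted p = 0.451 in limma). Its second probe had a mean of 0.17 and was higher in all 4 pairs.

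**Figure D3:**
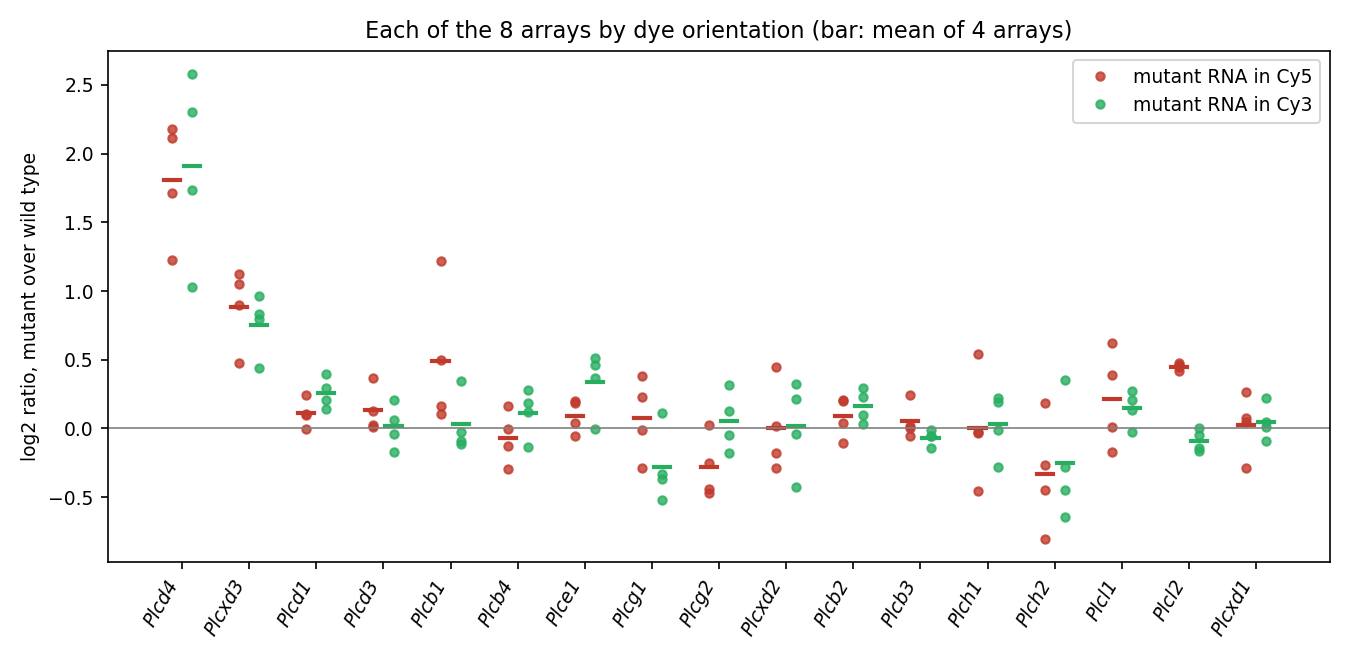
Log2 ratio of mutant over wild type (vertical axis) on each of the 8 arrays for the 17 measured phospholipase C genes, red for arrays with mutant RNA in Cy5 and green for Cy3, with a bar at the mean of the 4 arrays. The colours overlap for Plcd4 and Plcxd3, and they are fully apart for Plcl2, at means of 0.45 and -0.09.

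The family genes outside the 10 members extended the same picture. Plch2, an eta enzyme, had the lowest mean, -0.29 ± 0.15, from ratios of -0.45, -0.27, 0.27 and -0.72, with pair 3 opposite in sign. Plch1, the other eta enzyme, gave -0.37, 0.08, -0.02 and 0.38, a mean of 0.02 ± 0.12. Plcl1, which is phospholipase C-like but lacks enzyme activity, had a mean of 0.18 ± 0.10.

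Plcl2, the second inactive relative, illustrates why the dye orientations are given. Its pair ratios of 0.20, 0.16, 0.13 and 0.24 were alike and its mean of 0.18 ± 0.05 had the lowest adjusted p of the 15 genes (0.417 in limma). The 2 orientations, however, gave 0.45 and -0.09, and its second probe had a mean of -0.01. The mean difference between the 2 arrays of a pair was 0.54 for Plcl2 and 0.46 for Plcb1, larger than in 95.2% and 92.3% of all genes, against 0.20 for Plcd4 and 0.16 for Plcxd3. Plcz1, the sperm enzyme that triggers calcium waves in the egg, had 3 probes that were above background in 0 of 8 channels of either genotype, and it was not tested.

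In counts, 4 of the 10 members (Plcd4, Plcxd3, Plcd1 and Plcb1) were higher in all 4 pairs and 0 were lower in all. Since the choice of Plcd4 and Plcxd3 fixed part of that count, the 15 other measured genes are the better guide: 3 of them (Plcd1, Plcb1 and Plcl2) were higher in every pair and 0 lower, beside 12.1% and 7.84% of all genes. Their median was 0.04, beside 0.01 over all genes tested. The upper bound of the 95% interval was below 0.5 for 14 of the 15, and the exception was Plcb1.

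The rest of the phosphoinositide pathway was followed in 8 lists by role, from lipid supply to calcium and kinase targets, of which 103 of 111 genes were measured. Beside 0 of all 16013 genes tested, limma called 0 of the 103 (adjusted p from 0.406 for Prkd2 to 0.985). Means ran from -0.19 for Camk2a to 0.25 for Agtr1b, with a median of 0.04. They were above 0 for 66 genes and below for 37, beside 8629 and 7384 of the 16013 genes tested. Higher in every pair were 14 and lower in every pair 3, beside the shares of 12.1% and 7.84% over all genes. At an unadjusted threshold of 0.05, limma's test passed 8 in the higher and 1 in the lower direction, where 7.01% and 3.60% of all genes passed, so the share in the higher direction was near that of all genes.

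Upstream of the enzymes, 1 of the 18 measured genes for supply of the lipid substrate was higher in every pair, Cds2, which makes the lipid precursor CDP-diacylglycerol (0.11 ± 0.06). Among 20 measured Gq-coupled receptors, 3 were higher in every pair and 0 lower. Of these, the largest means were those of Agtr1b, an angiotensin receptor, with 0.11, 0.10, 0.31 and 0.49 (mean 0.25 ± 0.08, adjusted p = 0.425 in limma), and Chrm1, a muscarinic receptor, with a mean of 0.24 ± 0.07, and the remaining one was Ednrb, an endothelin receptor, at 0.21 ± 0.07. The 3 measured Gq class G proteins had a median of -0.03, and none had 1 sign in all pairs.

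Downstream, 3 of 13 genes for calcium release and entry were higher in every pair and 2 lower. The inositol trisphosphate receptors of the internal stores differed in direction: Itpr1 had a mean of 0.18 ± 0.08 and Itpr2 0.15 ± 0.07, whereas Itpr3 was lower in every pair at -0.12 ± 0.06. Of the calcium entry channels, Orai2 had a mean of 0.19 ± 0.06 and Orai3 was lower in every pair at -0.06 ± 0.06. None of the 9 genes for inositol phosphate turnover had 1 sign in all pairs. Of 8 diacylglycerol kinases, which remove diacylglycerol, 3 were higher in every pair, Dgkk at 0.15 ± 0.07, Dgkd at 0.11 ± 0.06 and Dgka at 0.05 ± 0.05. Dgkd turned sign with the dye, 0.37 with mutant RNA in Cy5 and -0.16 in Cy3. Dgka did so too, at -0.01 with mutant RNA in Cy5 and 0.12 in Cy3. Ednrb, Itpr2, Itpr3, Orai3, Dgka and, below, Calm2 were named after their values were seen, to complete these counts.

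Among 12 genes for protein kinases C and D and their targets, Prkd2, a diacylglycerol-activated kinase, gave 0.11, 0.18, 0.22 and 0.24 (mean 0.19 ± 0.05, adjusted p = 0.406 in limma), and Marcks, a kinase C substrate, had 0.17 ± 0.07. Of 20 genes for calmodulin, calcineurin and NFAT, 2 were higher in every pair, Camk4 at 0.20 ± 0.07 and Calm2 at 0.06 ± 0.06, and 1 was lower, Camkk2 at -0.16 ± 0.06. Calm2 turned sign with the dye, 0.20 with mutant RNA in Cy5 and -0.08 in Cy3. Every one of the mean differences in these pathway lists was smaller than that of Plcxd3. None passed the adjusted threshold, which 0 of all genes tested passed.

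**Figure D4:**
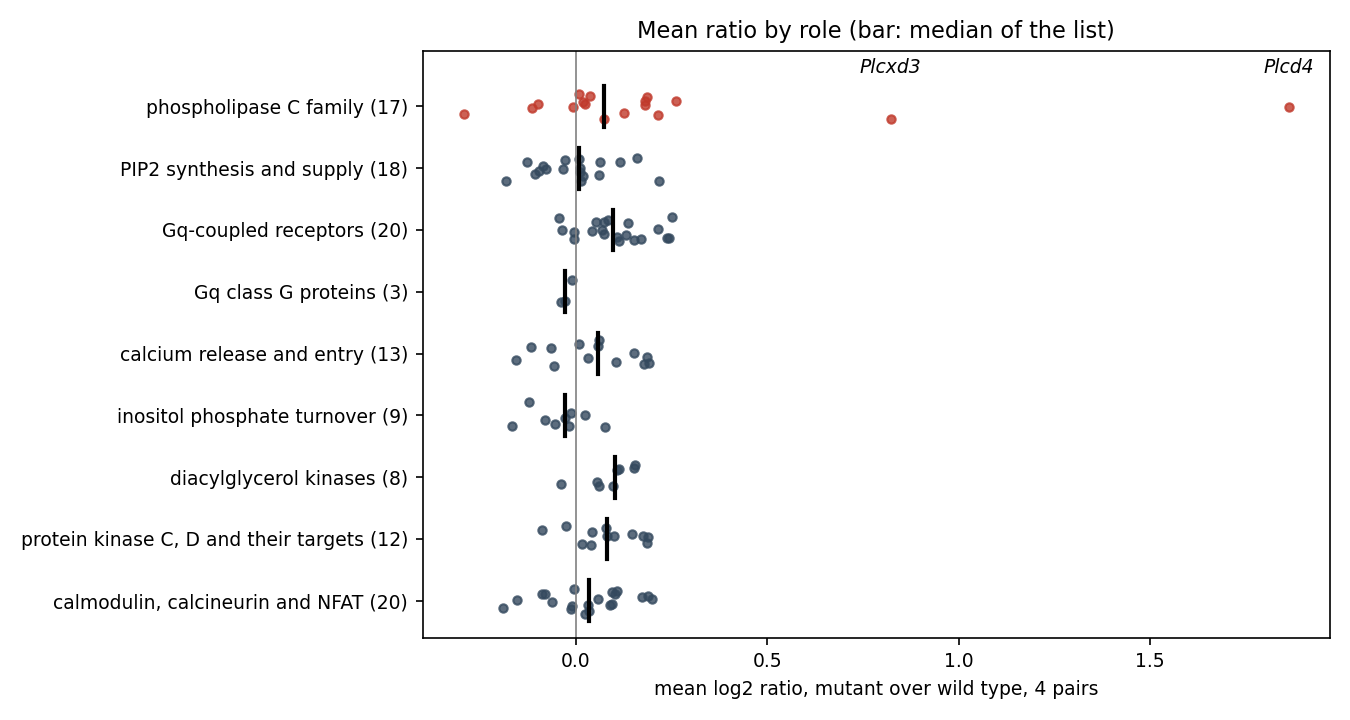
Mean log2 ratio of mutant over wild type over 4 pairs (horizontal axis) for each measured phospholipase C gene (red) and each measured pathway gene (blue), in 1 row per role list with the number of genes in brackets and a black bar at the median. Plcd4 at 1.86 and Plcxd3 at 0.82 lie outside the range of -0.19 to 0.25 that holds all 103 pathway genes.

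The levels of Plcd4 and Plcxd3 did not follow each other closely over the 8 RNAs (Pearson r 0.66, n = 8 RNAs). This r is a description with no test, in which the RNAs of a pair share arrays. Plcxd3 was high in both genotypes of pair 1, whereas the ratios of both genes were lowest in pair 3 and highest in pair 4. The tested genes most like Plcd4 by r were Plekha2 (0.994), Ccng1, which encodes cyclin G1 (0.993), Itgb4, an integrin of epithelial cells (0.989), Eda2r, a receptor of the tumour necrosis factor family (0.988), and Frs3os (0.987). Their mean ratios were 0.27, 1.04, 0.55, 1.15 and 0.36. Within the 4 wild-type RNAs alone, r was 0.997 for Plekha2, 0.80 for Ccng1, 0.91 for Itgb4, 0.50 for Eda2r and 0.995 for Frs3os. Within the 4 mutant RNAs alone, r was 0.97, 0.97, 0.99, 0.96 and 0.89 in the same order. The genes were picked for r over these same 8 RNAs, so the values within a genotype are no separate support. Frs3os was above background in 2 of 8 wild-type channels.

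For Plcxd3 the most similar genes were Kif1a (0.981), Lum, a matrix proteoglycan (0.980), Smoc1 (0.978), Mgp, a matrix protein that inhibits calcification (0.974), and Sulf1, an enzyme that trims heparan sulfate (0.974). Their mean ratios were 0.16, 0.67, 0.16, 0.36 and 0.29. Their r with Plcxd3 was 0.956 to 0.990 within the wild-type RNAs alone and 0.963 to 0.998 within the mutant RNAs alone. These values follow in part from the choice by r over the same RNAs. The high Plcxd3 level of pair 1 in each genotype also weighs heavily in them, so they are no separate support. Lum is also 1 of the 7 stromal markers used here. Stromal markers were higher on average in 7 of 7 cases, beside 8629 of the 16013 genes tested. Their summed levels were 16.30 to 16.81 in wild type and 16.62 to 17.34 in the mutant. The highest RNA of each genotype was that of pair 1, as for Plcxd3. Pair 1 was also highest in both genotypes for the macrophage markers (13.11 and 13.55) and the endothelial markers (14.37 and 14.41). The part of these markers in the Plcxd3 values was not tested.

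Of the genes beside Plcd4 and Plcxd3 on the chromosome, none was called, beside 0 of all 16013 genes tested. Around Plcd4, the nearest 3 protein-coding genes on each side gave 0.22 ± 0.21 for Vil1, -0.21 ± 0.06 for Usp37, 0.03 ± 0.06 for Cnot9, -0.09 ± 0.08 for Zfp142, -0.04 ± 0.06 for Bcs1l and -0.61 ± 0.54 for Rnf25. Usp37 was lower in all 4 pairs (adjusted p = 0.406 in limma), and the ratios of Rnf25 were 0.34, -0.17, 0.31 and -2.91. Around Plcxd3, Fbxo4, AW549877, Oxct1 and C7 had means between 0.03 and 0.10, and the probes of C6 and Mroh2b did not pass the background filter.

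Other measures also moved with the pairs. The mean ratio of 4 Y-linked genes was 2.76, 1.31, -1.64 and 2.83 in pairs 1 to 4. Wild type and mutant thus differed in Y-linked transcripts within each pair, and pair 3 ran the other way. Xist, the remaining sex-linked marker, gave -2.71, -0.23, 2.48 and -2.80, opposite in sign to the Y-linked mean in each pair but small in pair 2. Plcd4 and Plcxd3, like the Y-linked mean, had their lowest ratios in pair 3, at 1.13 and 0.46. The 10 ureteric bud and collecting duct markers, the cells in which the Cre acts, were lower on average in 10 of 10 cases, with summed levels of 16.51 to 17.07 in wild type and 16.19 to 16.59 in the mutant and pair means of -0.70, -0.15, 0.04 and -0.56. Macrophage markers were higher on average in 6 of 6 cases, with summed levels of 12.88 to 13.11 and 13.05 to 13.55. Of the other marker lists, the mean was higher for 3 of 10 nephron progenitor and early nephron genes, 4 of 5 proximal tubule genes, 4 of 5 endothelial genes, 3 of 4 B and mast cell genes, 2 of 5 red blood cell genes, 0 of 5 smooth muscle genes, 5 of 6 neuron and glia genes and 0 of 3 adrenal cortex genes. Over all genes tested, the mean was higher in the mutant for 8629 of 16013. The part of these marker and sex-linked measures in the Plcd4 and Plcxd3 ratios was not tested.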

How the data were processed

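Per the labels, total RNA was labelled from 100 ng with Cy3 or Cy5, and the 8 arrays form 4 pairs with exchanged dyes. The deposited scanner files give each spot's median intensity, its local background and the scanner's flags, per the file headers from Agilent Feature Extraction 10.7.3.1, whereas the submitters' processing notes name 8.5.1.1. The authors' deposited value table, used as an alternative, is on a log10 scale with Cy5 as the numerator and was not turned for the dye swap.

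With limma 3.58.1 in R 4.3.3, median signals were background-corrected by normexp (offset 50) and then loess-normalised array by array. Control spots (3671 an array) and outliers (95 to 156) had no weight there and were dropped afterwards. Ratios were turned to mutant over wild type, and averaged over the 2 arrays per pair, so that n = 4 pairs and the pairing is part of every ratio. Kept probes (34594 of 56605) were marked well above background in 6 or more of 8 channels from either genotype. Probes were named by RefSeq accession (32994, 58.3%), and the brightest kept probe stood for a gene. lmFit and eBayes gave two-sided tests of the mean against 0, adjusted by Benjamini-Hochberg across the 16013 genes. These p-values measure the spread between pairs, which may be technical. Levels per RNA are loess and Aquantile values averaged over both dyes, and summed levels of a marker list are log2 of the summed linear levels. The steps were tested on simulated data.

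The members and lists were chosen with earlier results of these data known. Named by rule were all family genes, up to 2 genes per pathway role with 1 sign in all pairs and the largest mean, the 5 genes most correlated with Plcd4 and with Plcxd3, and their neighbours in the GRCm38.p6 gene table. The correlated genes exclude symbols of clone or predicted-gene form and any that start with a letter and a digit. The array design refers to another build, so probe positions are not given. The result of 1 marker list is not reported here.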

Additional observations from a re-analysis of the deposited data

Results flagged for a closer look

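In 51 groups of 4 values (the ratios, wild-type levels and mutant levels of the measured family genes), 5 had a highest or lowest value far from the other 3 by Dixon's 95% limit on the gap as a share of the range. Chance gives about 1 in 20 groups. The Plcxd3 ratio of pair 3, 0.46, was low beside 0.92 to 0.98 in the other pairs. The Plcxd3 level in the mutant RNA of pair 1, 11.46, was high beside 9.87 to 10.10. The Plcd1 level in the mutant RNA of pair 1, 12.71, was high beside 12.48 to 12.49. The Plcb1 level in the wild-type RNA of pair 3, 9.52, was low beside 9.76 to 9.80. The Plcb1 level in the mutant RNA of pair 4, 10.54, was high beside 9.75 to 9.82.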

How the results depend on the processing

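Plcd4 and Plcxd3 were higher in the mutant under every alternative that gave a value. Plcd4 ranged from 1.07 (median of its probes) to 3.34 (background subtracted with a floor of 1), with 3.17 in the deposited table and 1.69 to 2.11 when 1 pair was left out, and it did not pass a filter asking for all 16 channels above background. Plcxd3 ranged from 0.56 (median of its probes) to 0.95. With median centring in place of loess, the median of all genes moved to 0.14 and 42 genes were called, all higher. The 2 family genes among them were Plcd4 and Plcxd3, which were chosen on this contrast, so these calls are no test of them. In that setting 9 family genes were higher in every pair in place of 5. A fit of all 8 arrays used a dye coefficient and the pair number as a replicate block (consensus correlation 0.586). It called 39 genes, 38 of them higher. No family gene other than those 2 was called in either setting. The other alternatives called 0 genes. Without 1 pair, 5 to 8 family genes were higher in every remaining pair, 8 of them without pair 1. The sign of the mean turned in 18 of 271 values, over Plcb4, Plcg1, Plcg2, Plcxd2, Plcb3, Plch1 and Plcl2. The cause of these changes was not tested. Signal over background limits Plcd4 in wild type and the second Plcxd3 probe.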
